A study of Zea mays with 2 samples.

Results

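In RNA from developing maize endosperm, 54 positions on the chromosomes were each shared by 4 or more rows of the deposited tables, with 229 rows among them. A row is a single FPKM value (fragments scaled by transcript length and library size) listed under a position, which is a chromosome with a start and an end. The 54 positions were found by counting how often each position string occurred, on chromosomes 1 to 10, leaving out chromosome 7 and chromosome 4 below 10 Mb. They made up 0.138% of the 39041 positions and 0.521% of the 43974 rows on the 10 chromosomes. The choice used the positions alone and no level.

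The 2 samples were endosperm of the opaque2 mutant and endosperm of wild type, both at 15 days after pollination (DAP). Each genotype had 1 value per row. The series' design text mentions triplicates, but how they enter that value is not stated in the sources used here. Differences between the genotypes could therefore not be set against replicate spread or tested. The sources used here also do not state the opaque2 allele, the inbred background or the number of ears or kernels. The tissue was not checked against marker genes, since the tables pair no nuclear row with a gene name. Summed over all 44119 rows, the values came to 2138613 FPKM in opaque2 and 2137410 in wild type. Depth is unknown, because the values carry no counts.

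Endosperm is the tissue that fills the kernel with starch and storage proteins, and opaque2 encodes a transcription factor of the bZIP family best known for activating zein storage protein genes there. Gene models of a genome can overlap, as antisense partners, as genes nested within introns of other genes, or as chains in which each model touches the next. When overlapping models are quantified together, the span of the whole group can be listed as the position of each of its members. In the 54 positions no span was overlapped by any other listed position, which a listing of that kind gives by construction. A span is thus not taken here as the length of a transcript. Reads in the overlap of models can be divided among them in more than 1 way, and the sources used here do not say whether the counting used strand. Such a division moves FPKM between rows and, where models differ in length, can also move the sum.

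Most positions held 4 rows. There were 43 positions with 4 rows, 9 with 5 rows and 2 with 6 rows. Their spans ran from 4.94 kb to 160 kb with a median of 20.6 kb. In the same part of the genome the median span was 8.03 kb for the 324 positions of 3 rows, just outside the choice, 4.19 kb for the 3646 positions of 2 rows and 2.33 kb for the 31603 positions of 1 row. Chromosome 5 held 14 of the 54 positions, chromosome 1 held 11, chromosome 2 held 7 and chromosome 3 held 6. Chromosomes 4 and 10 held 5 each, chromosome 9 held 3, chromosome 6 held 2 and chromosome 8 held 1.

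The summed level of a position was moderate in most cases and nearly the same in both genotypes. Over the 54 positions the sums ran from 2.12 FPKM to 1153 FPKM in opaque2 with a median of 27.5 FPKM, and from 1.19 FPKM to 1296 FPKM in wild type with a median of 24.3 FPKM. In opaque2 48 positions reached 5 FPKM and 33 reached 20 FPKM, while 48 reached 5 FPKM and 32 reached 20 FPKM in wild type. Together the rows summed to 3289 FPKM in opaque2 and 3313 in wild type (log2 ratio −0.01). In a bulk tissue sample, fewer cells of a type and less RNA per cell cannot be told apart, and this holds for every level given here. The median sum of 1-row positions was 1.38 FPKM in opaque2 and 1.40 in wild type, but a sum over more rows is higher by construction. The median of single rows was 2.36 FPKM in opaque2 and 2.37 in wild type at the 54 positions. It was 2.76 FPKM in opaque2 and 2.86 in wild type at positions of 3 rows. At positions of 2 rows it was 2.39 FPKM in opaque2 and 2.56 in wild type.

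**Figure D1:**
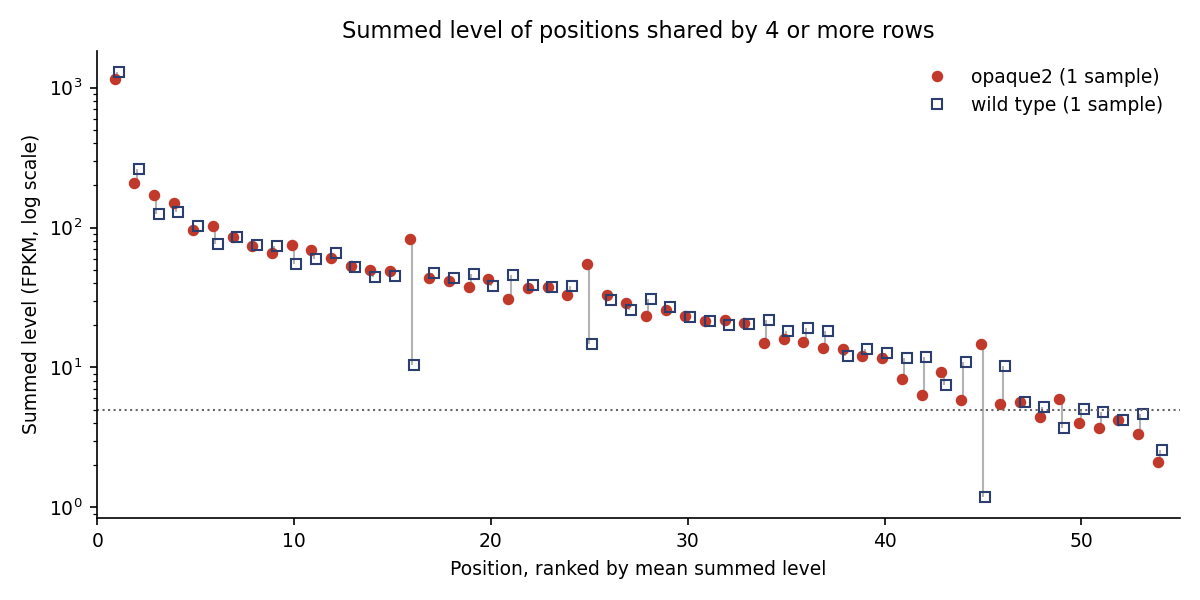
Summed FPKM of each of the 54 positions on a log scale, ranked by the mean of both samples. Filled circles are opaque2 and open squares are wild type, 1 sample each, a grey line joins the samples of a position, and the dotted line marks 5 FPKM. The 3 long lines are the positions whose sums were 82.9, 54.7 and 14.8 FPKM in opaque2, against 10.5, 14.6 and 1.19 FPKM in wild type.

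A single position on chromosome 9 carried the largest part of the total. At 72837224 to 72842312 the sums were 1153 FPKM in opaque2 and 1296 in wild type, which was 35.1% of the summed level of all 54 positions in opaque2, against 39.1% in wild type. Its 4 rows had 953, 174, 25.8 and 0.152 FPKM in opaque2 and, in the same order, 1068, 204, 24.3 and 0.153 FPKM in wild type. The rows thus spanned several orders of magnitude among themselves, while each row had nearly the same level in both genotypes. The log2 ratio of its sums was −0.17, and its rows of 5 FPKM or more lay between −0.22 and 0.08. Here and below, a log2 ratio is that of opaque2 over wild type with 1 FPKM added to each value. Without this position the remaining sums were 2136 FPKM in opaque2 and 2017 in wild type.

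The other positions of high level also kept their sums within 1.5-fold. On chromosome 1 at 203913752 to 203931405, a position of 6 rows, the sums were 208 FPKM in opaque2 and 260 in wild type (log2 ratio −0.32). On chromosome 10 at 63613518 to 63622627 they were 172 FPKM in opaque2 and 124 in wild type (log2 ratio 0.47). Its 2 high rows moved alike, with 100.2 and 64.6 FPKM in opaque2 against 70.8 and 46.0 FPKM in wild type, while the next row had 7.15 FPKM in opaque2 and 7.18 in wild type. On chromosome 9 at 65284401 to 65320391 the sums were 151 FPKM in opaque2 and 128 in wild type (log2 ratio 0.23), and 1 row held 96.3% of the sum in opaque2, against 93.7% in wild type. At 33289709 to 33421404 on chromosome 5 the sums were 102 FPKM in opaque2 and 76.6 in wild type (log2 ratio 0.41). Its 3 highest rows had log2 ratios of 0.28, 0.53 and 0.41, all on the same side.

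At 3 further positions the sums lay within 1.2-fold of each other. On chromosome 5 at 209939509 to 209971549 they were 96.2 FPKM in opaque2 and 102 in wild type (log2 ratio −0.09). Its highest row held the lowest share of all positions that reached 5 FPKM, 32.7% in opaque2 and 34.9% in wild type, with rows of 30.9, 31.5, 20.5, 12.5 and 0.881 FPKM in opaque2 and 35.7, 28.8, 23.2, 13.4 and 1.27 FPKM in wild type. On chromosome 10 at 90479635 to 90492880 the sums were 74.4 FPKM in opaque2 and 75.4 in wild type (log2 ratio −0.02). On chromosome 2 at 86887384 to 86916480, the other position of 6 rows, they were 50.1 FPKM in opaque2 and 44.6 in wild type (log2 ratio 0.16). Its rows of 5 FPKM or more had 21.2, 14.6 and 11.2 FPKM in opaque2 and 21.4, 10.2 and 9.63 FPKM in wild type.

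Within a position, the level was concentrated in 1 or 2 rows. The highest row held 61.3% of the sum in opaque2, against 67.4% in wild type, as medians over the 48 positions that reached 5 FPKM in the sample. These shares ran from 32.7% to 96.7% in opaque2 and from 34.9% to 96.9% in wild type. To reach 90% of the sum, 6 positions needed 1 row and 26 needed 2 rows in opaque2, while 5 needed 1 row and 31 needed 2 rows in wild type. The remaining positions needed 3 rows (14 in opaque2, 13 in wild type) or 4 rows (8 in opaque2, 5 in wild type). When rows were ranked by mean level, the first had a median of 16.6 FPKM in opaque2 and 16.2 in wild type. The second had 5.05 FPKM in opaque2 and 4.81 in wild type, the third 1.11 FPKM in opaque2 against 1.54 in wild type, and the fourth 0.5005 FPKM in opaque2 against 0.463 in wild type. All rows reached 1 FPKM at 10 positions in opaque2 and at 13 positions in wild type.

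**Figure D2:**
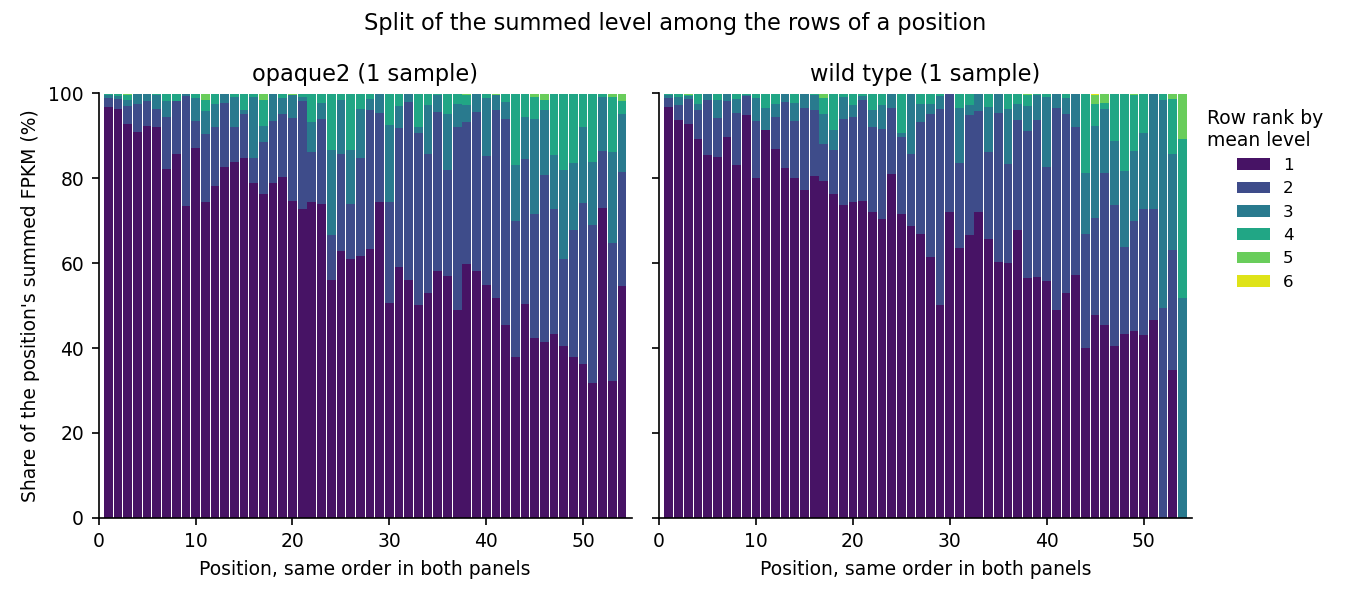
Share of the summed FPKM of a position held by each of its rows, in percent, for opaque2 on the left and wild type on the right, 1 sample each, with the 54 positions in the same order in both panels. Colours stand for the rank of a row by its mean level. The highest row held a median of 61.3% in opaque2 and 67.4% in wild type at positions of 5 FPKM or more.

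The highest row was largely shared by the genotypes, and the whole order of rows less often. At 48 of the 54 positions the same row was highest in both samples, and at 25 positions the whole order was the same. Rows at a position carry no name, so they were matched between the tables by their order. The position strings stood in the same order in both tables for all 44119 rows, but rows of a position share that string, so this does not show that each row is the same model in both. Every ratio of a row and the counts of shared order above rest on this matching, whereas the sums do not. No position had all its rows on consecutive lines, while 62 of the 229 rows had a row of the same position on a neighbouring line. Across the 229 rows the log2 levels of the genotypes had a Pearson correlation of 0.92 and a Spearman correlation of 0.87, given as a description, since the rows share their models and libraries. The 6 positions with a different highest row, named after their values were seen, included 2 of those with changed sums described below. At the other 4 the leading rows lay within 2-fold of each other in both samples. On chromosome 1 at 212332408 to 212358537, for example, the leading rows had 17.2 and 18.3 FPKM in opaque2 and 24.7 and 19.7 FPKM in wild type.

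Changed sums were few, at a share near that of the genome. A sum or row was called changed if the samples differed 2-fold or more on the scale with 1 FPKM added and reached 5 FPKM in the higher sample. Of the 50 positions whose sum reached 5 FPKM, 3 were higher in opaque2 and 0 were lower, 6% in all. Over the sums of all positions on the 10 chromosomes the same rule called 7.73% in either direction, 4.05% higher and 3.68% lower. All position sums here include chromosome 7 and chromosome 4 below 10 Mb. Without those stretches it called 8.02% of sums at positions of 3 rows, 6.99% at 2 rows and 7.37% at 1 row. The count at these positions is thus near the background. Of the 50 sums 44 lay within 1.5-fold (88.0%), against 82.9% of all position sums. Their median log2 ratio was −0.04 with quartiles at −0.20 and 0.16, against a median of −0.04 and quartiles at −0.26 and 0.19 for all position sums. The sum was above 0 on the log2 scale at 21 positions and below 0 at 29.

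**Figure D3:**
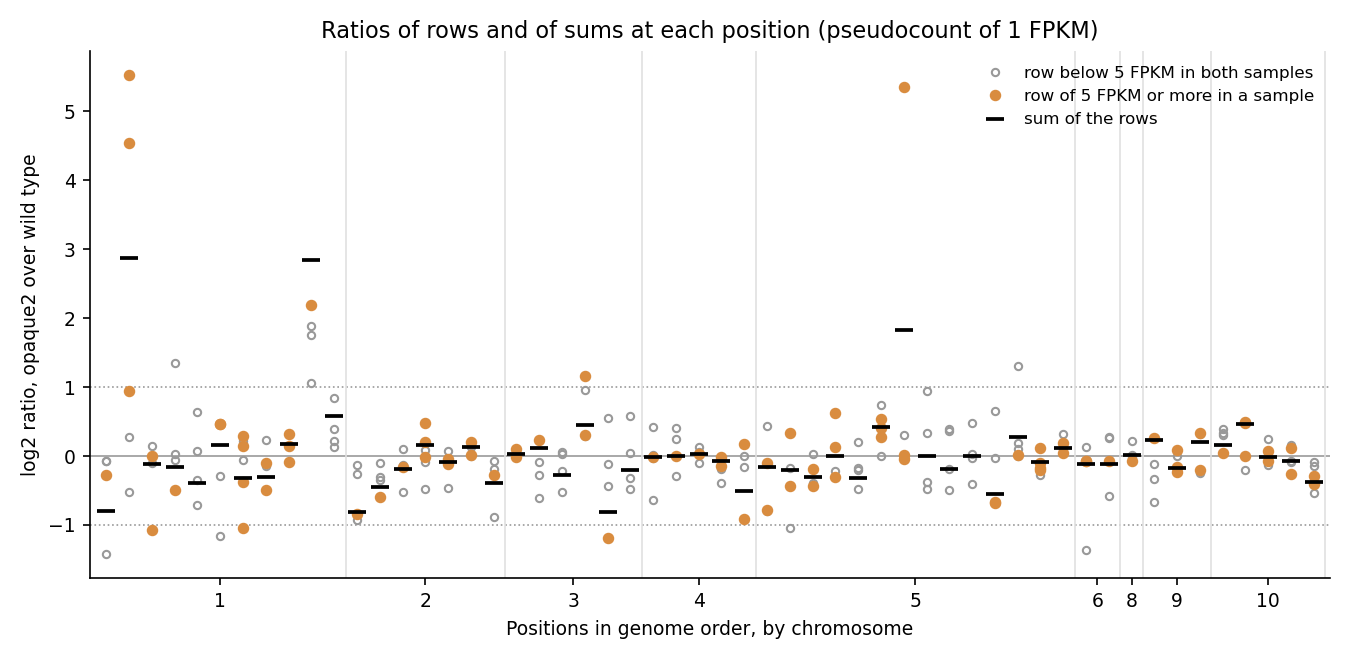
Log2 ratio of opaque2 over wild type, with 1 FPKM added, for each row (circles) and for the sum of the rows (black bars) at the 54 positions, in genome order by chromosome, 1 sample per genotype. Filled circles are rows of 5 FPKM or more in a sample and open circles are lower rows, and dotted lines mark 2-fold. The 3 sums above the upper dotted line are at 2.87, 2.85 and 1.83.

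The position with the highest ratio held 2 rows listed at 0 in wild type. On chromosome 1 at 21196693 to 21221560 the sums were 82.9 FPKM in opaque2 and 10.5 in wild type (log2 ratio 2.87). Its rows had 45.3, 22.2, 11.4, 2.43 and 1.56 FPKM in opaque2 and, in the same order, 0, 0, 5.42, 3.94 and 1.11 FPKM in wild type. Since a listed 0 may stand for an estimate that failed, the first 2 rows are given no fold. Over the 3 rows above 0 in both samples the sums were 15.4 FPKM in opaque2 and 10.5 in wild type (log2 ratio 0.51), which is below 2-fold. The log2 ratios of these 3 rows were 0.95, −0.52 and 0.28.

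A similar pattern was seen on chromosome 5 at 76938312 to 76943750, a short position of 5.44 kb. The sums were 54.7 FPKM in opaque2 and 14.6 in wild type (log2 ratio 1.83). A single row had 40.0 FPKM in opaque2 and a listed 0 in wild type. The other 3 rows had 7.35, 6.92 and 0.511 FPKM in opaque2 and 7.23, 7.19 and 0.227 FPKM in wild type. Without the row listed at 0 the sums were 14.8 FPKM in opaque2 and 14.6 in wild type (log2 ratio 0.01). Without that row, the 2 rows of 5 FPKM or more had log2 ratios of 0.02 and −0.05.

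At the remaining changed position all rows were higher in opaque2. On chromosome 1 at 274511842 to 274518322 the sums were 14.8 FPKM in opaque2 and 1.19 in wild type, 12.4-fold higher in opaque2 (log2 ratio 2.85 with 1 FPKM added). Its rows had 7.49, 3.496, 2.70 and 1.08 FPKM in opaque2 and, in the same order, 0.860, 0.332, 0 and 0 FPKM in wild type. The 2 rows above 0 in both samples had log2 ratios of 2.19 and 1.75, and their sums were 10.98 FPKM in opaque2 and 1.19 in wild type. Since the wild type values are low, the ratio of the sums depends on the added value, with 3.52 at 0.1 FPKM and 1.67 at 5 FPKM. All rows lay on 1 side at 12 of the 54 positions, 6 higher and 6 lower in opaque2, and among those 12 the sum passed 2-fold at this position alone.

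**Figure D4:**
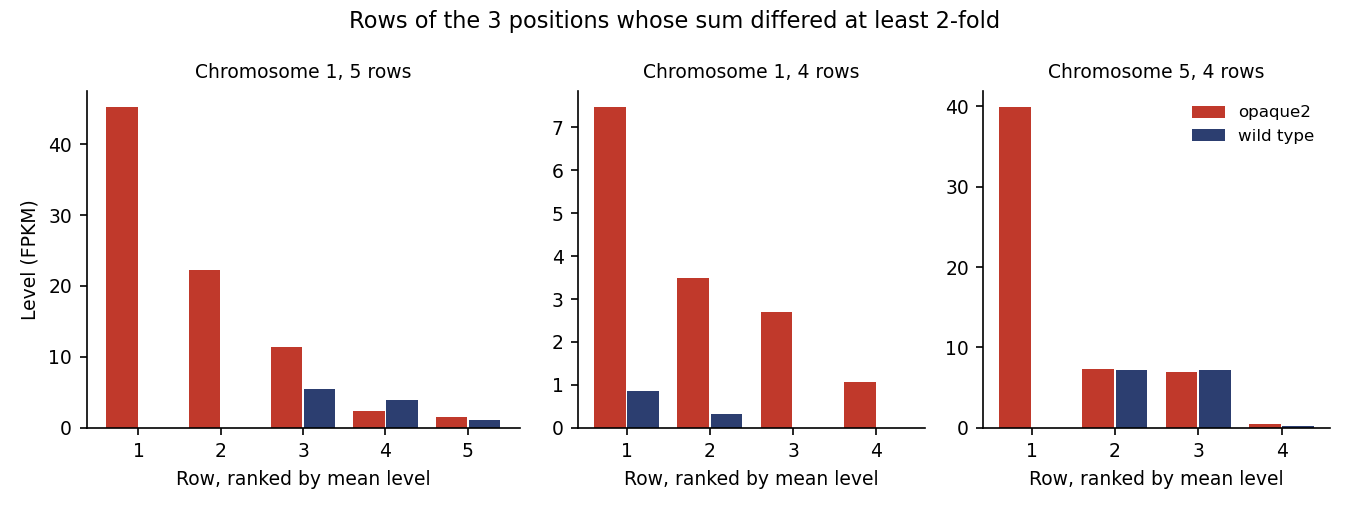
FPKM of each row at the 3 positions whose sum differed at least 2-fold, with rows ranked by mean level along the x axis, opaque2 in red and wild type in blue, 1 sample each, and a separate linear y axis in each panel. Rows without a blue bar are listed at 0 in wild type. In the middle panel, on chromosome 1, all 4 rows were higher in opaque2, with 7.49 FPKM against 0.860 FPKM for the first.

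No neighbour of these 3 positions passed the 2-fold rule. Each had 9 other positions with a sum of 5 FPKM or more within 500 kb of its centre, and 0 of those 27 passed 2-fold. The same rule called 7.73% of all position sums on the 10 chromosomes, a share at which few of 27 would be called. Their log2 ratios ran from −0.66 to 0.42 around the first position on chromosome 1, from −0.46 to 0.16 around the second and from −0.22 to 0.30 around that on chromosome 5. The nearest such neighbour of the second, at 274494453 to 274510748, ended just before it and had 6.86 FPKM in opaque2 and 9.84 in wild type. The nearest to the position on chromosome 5 was at 76950190 to 76960276 and reached 9.29 FPKM in opaque2 and 7.36 in wild type.

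**Figure D5:**
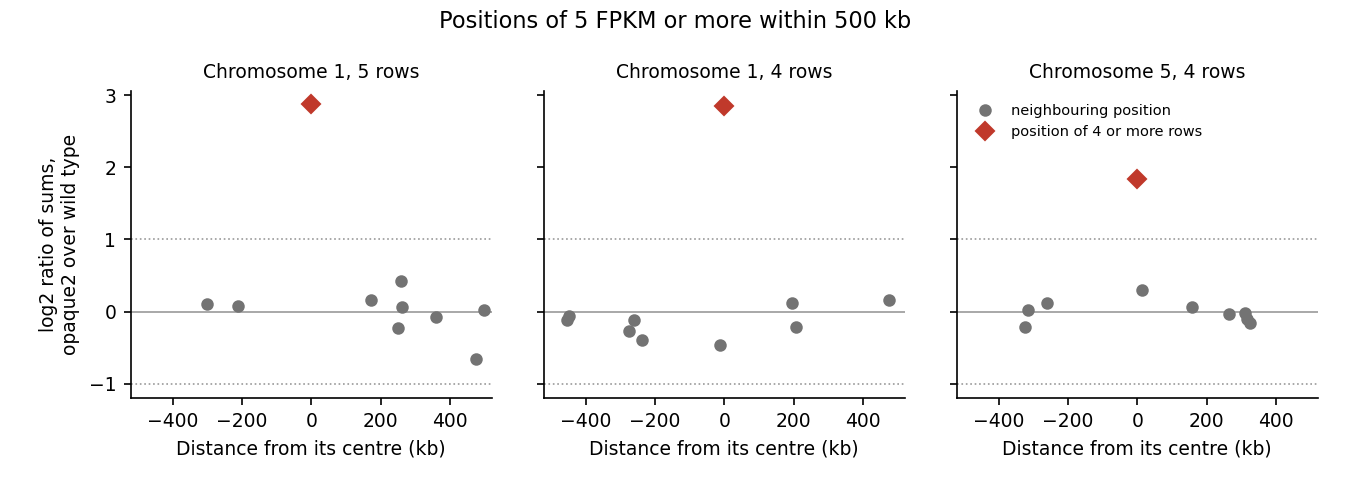
Log2 ratio of summed FPKM, opaque2 over wild type with 1 FPKM added, for the 3 changed positions (red diamonds) and the positions of 5 FPKM or more within 500 kb (grey circles), against the distance between centres in kb. Dotted lines mark 2-fold. All 27 neighbours lie between −0.66 and 0.42.

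Below 2-fold, the next highest ratios of sums were moderate. On chromosome 1 at 295875858 to 295881247 the sums were 5.98 FPKM in opaque2 and 3.69 in wild type (log2 ratio 0.57), and no row reached 5 FPKM. On chromosome 3 at 141261688 to 141325830 they were 75.6 FPKM in opaque2 and 54.8 in wild type (log2 ratio 0.46). All 4 rows there were higher in opaque2, with 59.1, 10.6, 4.05 and 1.90 FPKM against 47.6, 4.19, 1.61 and 1.38 FPKM in wild type. The row of 10.6 FPKM passed the 2-fold rule (log2 ratio 1.15), and without the highest row the sums had a log2 ratio of 1.10.

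The lowest ratios of sums, among positions whose sum reached 5 FPKM, stayed within 2-fold. On chromosome 3 at 158979321 to 159007265 the sums were 5.81 FPKM in opaque2 and 10.996 in wild type (log2 ratio −0.82). Its leading row passed the 2-fold rule downward, at 2.91 FPKM in opaque2 against 7.92 FPKM in wild type (log2 ratio −1.19), while the second had 2.36 FPKM in opaque2 and 2.62 in wild type. On chromosome 2 at 23927961 to 23945980 the sums were 6.34 FPKM in opaque2 and 11.8 in wild type (log2 ratio −0.81). On chromosome 1 at 514921 to 526846 they were 5.49 FPKM in opaque2 and 10.3 in wild type (log2 ratio −0.80). There the second row, with 1.15 FPKM in opaque2 and 4.75 in wild type, differed more than the first, with 4.09 FPKM in opaque2 and 5.15 in wild type.

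On chromosome 5 at 120738444 to 120748777 the sums were 31.1 FPKM in opaque2 and 46.1 in wild type (log2 ratio −0.56). Its leading rows had 19.2 and 7.20 FPKM in opaque2 and 30.9 and 12.1 FPKM in wild type, with nearly equal log2 ratios of −0.66 and −0.68. The next row had 3.57 FPKM in opaque2 and 1.90 in wild type. On chromosome 4 at 238744350 to 238757190 the sums were 15.0 FPKM in opaque2 and 21.7 in wild type (log2 ratio −0.51). Its leading row had 7.34 FPKM in opaque2 against 14.7 in wild type, while the second had 6.49 FPKM in opaque2 and 5.64 in wild type. On chromosome 2 at 36763535 to 36778589 the sums were 8.31 FPKM in opaque2 and 11.7 in wild type (log2 ratio −0.45), with all 4 rows lower in opaque2.

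Single rows changed about as often as rows elsewhere. Of the 87 rows that reached 5 FPKM in a sample, 5 were higher in opaque2 and 3 lower, 9.20% in all. Over all rows of the 10 chromosomes, with the left-out stretches included, the same rule called 7.94%, 4.09% higher and 3.85% lower. Without those stretches it called 9.43% of rows at positions of 3 rows, 7.59% at 2 rows and 7.37% at 1 row. The 5 higher rows were the 3 listed at 0 in wild type, the leading row of the position on chromosome 1 at 274511842 and the row on chromosome 3 at 141261688 given above. The 3 lower rows included that on chromosome 3 at 158979321. Another was the second row on chromosome 1 at 30744806 to 30762772, at 3.58 FPKM in opaque2 and 8.65 in wild type (log2 ratio −1.08). The leading row of the same position had 56.4 FPKM in opaque2 against 56.3 in wild type, and the sums were 61.0 FPKM in opaque2 against 65.9 in wild type. The last was a row of the 6-row position on chromosome 1 at 203913752, with 8.26 FPKM in opaque2 and 18.1 in wild type (log2 ratio −1.04). Its fellow rows there had log2 ratios of −0.38, 0.14, 0.30, 0.22 and −0.06.

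Ratios of rows at a position ran from nearly equal to over 2-fold apart. At 29 positions 2 or more rows reached 5 FPKM, and the range of their log2 ratios had a median of 0.39 with quartiles at 0.14 and 0.77. The range was below 0.5 at 18 of these positions and 1 or more at 5. At 2 of the 5, on chromosome 5 at 76938312 and on chromosome 1 at 21196693, it was set by rows listed at 0 in wild type and by the 1 FPKM added, and is not given. Both positions are among the 29 behind the median and quartiles. With rows above 0 in both samples only, the median range was 0.32 over 28 positions. Positions of 3 rows and of 2 rows were not recomputed in that way. The others were the positions on chromosome 1 at 203913752 (1.34) and 30744806 (1.08) and on chromosome 4 at 238744350 (1.09). The next, on chromosome 5 at 19456812 to 19462475, had a range of 0.93, although its sums were 85.8 FPKM in opaque2 and 86.1 in wild type. Its rows had 45.6, 28.0, 9.96 and 2.27 FPKM in opaque2 and 56.5, 17.8, 8.98 and 2.80 FPKM in wild type, so that the first 2 rows differed in opposite directions below 2-fold. At 0 of the 54 positions did 1 row pass the rule upward and another downward, and only the 29 above could show this. Where at least 2 rows reached 5 FPKM, it was seen at 0 of 131 positions of 3 rows. Among positions of 2 rows it was seen at 1 of 865. For comparison, positions of 3 rows had a median range of 0.30 and positions of 2 rows had 0.24. These were the 131 and 865 positions with at least 2 rows of 5 FPKM. More rows of 5 FPKM give a wider range by construction. Of the 29 positions above, 19 had 2 such rows, 8 had 3 and 2 had 4 or more. The number of such rows was not made equal between the classes. The difference in range was not tested, and the range among rows of different positions was not computed.

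The ratio of the highest row and that of the summed other rows were set side by side at the 35 positions where both reached 5 FPKM. They had the same sign at 23 positions and opposite signs at 12, and the median distance between them was 0.31 on the log2 scale. Their Pearson correlation was 0.51 and their Spearman correlation 0.36. Without the 3 positions of changed sum the Pearson correlation was 0.25 and the Spearman correlation 0.25 over 32 positions. These values are a description, since rows of a position may share reads and all positions share the same libraries.

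Low rows varied more between the samples. For 55 rows below 1 FPKM in both samples and above 0 in each, the median size of the log2 ratio with nothing added was 0.63. For 68 rows whose higher value was 1 to 5 FPKM it was 0.46, for 50 rows of 5 to 20 FPKM it was 0.26, and for 34 rows of 20 FPKM or more it was 0.19. With 1 FPKM added, 87 rows past the floor had a median size of 0.21, and the 50 sums had 0.18.

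Rows listed at 0 were mostly low in the other genotype. In opaque2 7 of the 229 rows were listed at 0 (3.06%, exact Clopper-Pearson 95% interval 1.24% to 6.20%), and in wild type 15 (6.55%, interval 3.71% to 10.6%). The intervals cover counting over rows only and treat rows as independent. Over all rows of the 10 chromosomes, with the left-out stretches included, the shares were 3.14% in opaque2 and 11.1% in wild type. No row was listed at 0 in both. The 7 rows listed at 0 in opaque2 had 0.0355 to 1.57 FPKM in wild type with a median of 0.438 FPKM. The 15 rows listed at 0 in wild type had 0.116 to 45.3 FPKM in opaque2 with a median of 0.791 FPKM, and only the 3 rows named above reached 5 FPKM. Every position with a row listed at 0 had other rows above 0 in that sample.

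The 4 positions whose sum stayed below 5 FPKM in both samples lay on chromosomes 1 and 5. Their sums ran from 2.12 to 4.19 FPKM in opaque2 and from 2.56 to 4.80 FPKM in wild type.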

How the data were processed

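The authors deposited FPKM values for 1 sample per genotype, per the file headers, without counts. Per the labels' protocols, Trizol-extracted, DNase-treated RNA went into Illumina libraries, and the submitters' processing notes name Bowtie 0.12.2, with no role. The sources used here do not state the FPKM program, genome build, annotation or any pooling. Starts count from 0: 48 of 84 mitochondrial starts equal a start of the RefSeq table (Zm-B73-REFERENCE-NAM-5.0) after adding 1 and 0 without it, so 1 was added. No nuclear name was assigned.

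Sums over a position, log2 ratios (pseudocount 1 FPKM) and calls (2-fold, 5 FPKM or more in the higher sample) were computed with SciPy 1.17.1, pandas 2.3.3 and NumPy 2.4.6 under Python 3.11.15 (figures in Matplotlib 3.10.9), and checked on simulated data. Without replicates, depth and noise are unknown. Positions named were the 8 of highest mean sum, the 6 highest and 6 lowest ratios of sums at 5 FPKM or more, the 6 of widest row spread and the 3 with most rows, 21 in all. Neighbours and positions with another highest row were added after seeing values. The members and lists were chosen with earlier results of these data known. Alternatives were other pseudocounts, floors, folds, scalings and row minimums.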

Additional observations from a re-analysis of the deposited data

How the results depend on the processing

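The count of changed sums was 3 as reported and 3 with pseudocounts of 0.1 and 5, equal totals, centring, a floor of 1 FPKM and no floor. The count was 6 at 1.5-fold (3 higher, 3 lower), 1 with rows above 0 in both samples only and 1 for positions of 5 or more rows. It was 2 with a floor of 20 FPKM, 2 at 4-fold and 4 without the highest row of each position (3 higher, 1 lower). In that last setting the position on chromosome 5 at 76938312 fell below 2-fold (log2 ratio 0.01), while those on chromosome 3 at 141261688 (1.10) and chromosome 1 at 514921 (−1.35) passed it. The count was 24 of 312 for positions of 3 or more rows, which adds positions by construction. The count of changed rows was 8 as reported and 4 with a pseudocount of 5, 17 with a floor of 1 FPKM and 17 without a floor. There were 3 with a floor of 20 FPKM, 16 at 1.5-fold and 4 at 4-fold. Rows above 0 in both samples gave 5, positions of 3 or more rows 46, positions of 5 or more rows 3, and leaving out the highest row of each position 4. These moves follow from a wider or narrower rule or from the rows kept. Matching rows by rank of level, chosen after seeing the data, gave 9. The median log2 ratio of sums lay between −0.07 and 0.00, the median row range between 0.29 and 0.82, and the median share of the highest row between 54.7% and 68.2% in opaque2 and between 51.8% and 69.6% in wild type. No setting gave a position with rows changed in opposite directions, 0 in each of 14. Of the values of the 21 named positions under 13 planned settings, 11 moved by over 1.5-fold and 246 did not. Other floors, folds and row minimums cannot alter the ratio of a kept position. Many of the 246 were therefore unchanged by construction and say nothing of stability. No called ratio changed sign. No paired analysis was possible because only 1 sample stands for each genotype, and no replicate could be left out. The tables hold no depth, so its limit on low values could not be measured.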

Other observations

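The 14 positions on chromosome 5 came to 3.11 per 1000 listed positions of that chromosome. On the other chromosomes within the choice the figure ran from 0.284 on chromosome 8 to 1.87 on chromosome 10. Chromosome 7, left out by the choice, also held 8 positions of 4 or more rows, and no figure was computed for it. No test was made of this difference. On chromosome 4 the stretch below 10 Mb was left out of the members but not of the listed positions.

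Of neighbouring positions with 4 or more rows, 5 pairs lay within 1 Mb of each other. The closest pair, on chromosome 5 at 19242125 and 19456812, was 0.201 Mb apart, with log2 ratios of sums of −0.30 and −0.004. The next, on chromosome 5 at 2575977 and 3059585, was 0.456 Mb apart, with −0.17 and −0.21. On chromosome 1 the changed position at 274511842 lay 0.612 Mb from that at 273891884, which had 43.0 FPKM in opaque2 and 38.2 in wild type (log2 ratio 0.17).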
